A study of Drosophila melanogaster with 9 samples.

Results

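The subunits of the respiratory chain and of the ATP synthase were examined in RNA sequenced from hearts of w1118 females of Drosophila melanogaster. The members were the rows of the deposited table whose gene symbol begins with ND-, COX, UQCR- or ATPsyn, after gene labels that stood beside the wrong row had been put back, which concerns ND-AGGG, ND-MWFE, COX7AL2, ATPsynbetaL and ATPsynGL. This gave 80 genes of 16700 rows, namely 7 core subunits and 27 accessory subunits of complex I, 6 subunits of complex III, 8 of complex IV, 11 of the ATP synthase, and 21 paralog copies whose symbols carry an L for "like". Mated females received high sugar diet (HSD), which is normal diet plus 30% sucrose, for 10 days, or normal diet for 7 days followed by high fat diet (HFD), which is normal diet plus 30% coconut oil, for 3 days, or normal diet (ND) throughout for 10 days. HSD and HFD hearts thus differed in the length of exposure as well as in the nutrient added. Each diet has 3 libraries, named A, B and C, and each library pools hearts from several females, 15 by the labels and 30 by the study's methods, so that differences between single hearts were not measured. The study gives the samples of a diet as independent collections on different days, with flies of every diet prepared for each date, and the labels do not tie the letters to those dates.

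The respiratory chain is built into the inner membrane of the mitochondrion. Complex I takes electrons from NADH, complex II takes them from succinate, complex III passes them from ubiquinone to cytochrome c, and complex IV passes them from cytochrome c to oxygen. Complexes I, III and IV pump protons as they do so, and the ATP synthase, also called complex V, lets the protons flow back and makes ATP from ADP and phosphate. The heart beats without rest and depends on this machinery for most of its ATP. Most subunits are encoded in the nucleus, as all 80 members here are, while a small set of hydrophobic subunits is encoded in the mitochondrial genome and was not analysed here. In Drosophila several subunits have a duplicated copy, and many of these copies are known from the testis.

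The values are RPKM, the reads of a gene divided by its length and by the reads counted on all genes of that library, rescaled between libraries by the median of their ratios. The reads counted on genes were rebuilt from the steps between the RPKM values, taking both mates of a pair as counted. They ranged from 69543213 to 90069216 in HSD libraries, from 59941761 to 71825893 in HFD libraries and from 75653834 to 79296601 in ND libraries. The 80 genes took between 1.11% and 1.17% of these reads on HSD, between 1.15% and 1.20% on HFD and between 1.06% and 1.16% on ND. Heart and muscle transcripts were abundant in all libraries, with 14 of 14 such markers tested and a summed level of 2655 to 3809 RPKM on HSD, 2620 to 4143 on HFD and 2611 to 3236 on ND. The 4 flight muscle markers summed to no more than 4.89 RPKM on HSD, 5.03 on HFD and 4.28 on ND, with fln at 0 in all HSD and HFD libraries and at 0.02 in ND library A alone, and 3 of these 4 markers were too low to be tested. Other cells were present in the preparations. The 4 oenocyte markers summed to 53064 to 63630 RPKM on HSD, 46839 to 58089 on HFD and 36993 to 50800 on ND, and the 5 fat body markers to 1385 to 1568 on HSD, 1093 to 1373 on HFD and 1898 to 2622 on ND. The 5 pericardial nephrocyte markers summed to 174 to 294 RPKM on HSD, 246 to 341 on HFD and 279 to 379 on ND, and the 4 hemocyte markers to 497 to 699, 558 to 671 and 679 to 775 in the same order of diets. The 4 ovary markers found summed to 1.34 to 16.1 RPKM on HSD, 1.5 to 14.1 on HFD and 23.5 to 682 on ND. Respiratory subunits are made in all of these cells, and a change in the mixture of cells cannot be told apart here from a change of RNA within a cell.

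Of the 80 genes, 59 averaged at least 0.5 RPKM over the 9 libraries and were tested. All 7 core subunits of complex I, all 8 subunits of complex IV and all 11 of the ATP synthase were among them, with 25 of 27 accessory subunits of complex I, 5 of 6 of complex III and 3 of 21 paralog copies. The 59 genes had between 21 and 171807 reads per library. Their median level was 122 RPKM, against 9.65 over all genes tested. None was among the 100 most abundant transcripts, 26 were among the 500 most abundant and 47 among the 1000 most abundant.

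Within the complexes the levels were graded. The median mean level was 101 RPKM for the core and 92.9 for the accessory subunits of complex I, 103 for complex III, 291 for complex IV and 254 for the ATP synthase. The median level by diet was 102 RPKM on HSD, 102 on HFD and 103 on ND for the complex I core, and 285, 284 and 305 in the same order for complex IV. The highest transcript of the whole set was ATPsynbeta (FBgn0010217, chromosome 4, 1031484 to 1034917 in the BDGP6 annotation), the catalytic subunit of the ATP synthase. It stood at 815, 755 and 698 RPKM in HSD libraries A, B and C, at 798, 762 and 690 in HFD libraries and at 776, 718 and 693 in ND libraries. The 3 diets overlapped, and the libraries of any diet spanned a wider range than the distance between the diet means of 756 ± 58.7, 750 ± 55.3 and 729 ± 42.3 RPKM on HSD, HFD and ND (SD, n = 3 each). ATPsyndelta, a subunit of the central stalk, had the lowest RPKM in the enzyme, 16.5-fold below ATPsynbeta. Its 10183 to 16616 reads per library were divided by 3817 exon bases, of which 35.6% lie under CG2962 on the opposite strand. ATPsynE, with 9828 to 17311 reads over 720 bases, averaged 247 RPKM. The rank of ATPsyndelta thus depends on the length used. The range within the core of complex I was narrower, 2.11-fold between ND-51 at the top and ND-30 at the bottom.

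**Figure D1:**
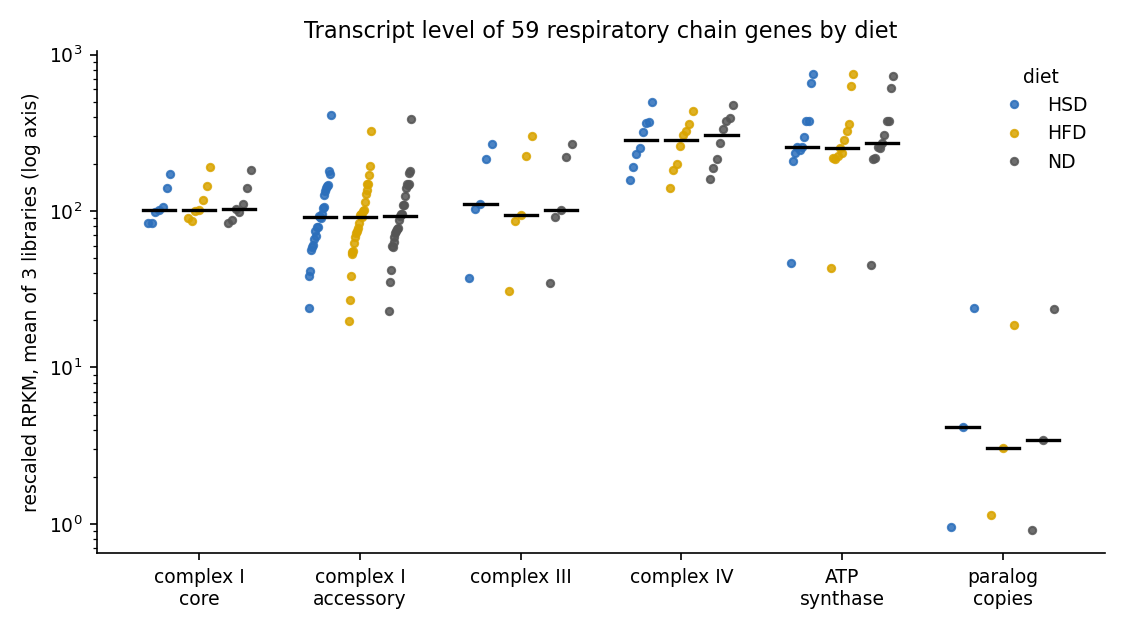
Mean rescaled RPKM of the 59 genes tested, by complex, on HSD (blue), HFD (yellow) and ND (grey). Each point is the mean of 3 libraries of 1 gene, the black bar is the median of the complex, and the axis is logarithmic. Complex IV and the ATP synthase lie above complexes I and III, the paralog copies UQCR-11L and COX7CL lie far below, COX7AL2 is level with the lowest subunit of complex I, and the diets lie close together within every complex.

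The order of the levels was read from genes that lie next to each other in it. Among the 24 such pairs of accessory complex I subunits, the ranges over the 9 libraries were apart in only 2 pairs. They were apart in 2 of 6 pairs in the complex I core, 2 of 4 in complex III, 1 of 7 in complex IV and 2 of 10 in the ATP synthase. ND-MLRQ, at 375 RPKM, stood clear of every other accessory subunit of complex I, the next being ND-SGDH at 182 RPKM. In mammals the counterpart of ND-MLRQ, NDUFA4, was first assigned to complex I and later found in complex IV. In complex III the core proteins UQCR-C1 (280 RPKM) and UQCR-C2 (220 RPKM) stood above UQCR-Q (103 RPKM), UQCR-6.4 (93.8 RPKM) and the hinge protein UQCR-11 (34.2 RPKM). The distance between the last 2 rests on the length used. UQCR-6.4 had 3124 to 5104 reads per library over 561 bases, and UQCR-11 had 2737 to 5074 over 1613 bases. COX7B led complex IV with 467 RPKM, followed by COX5A with 375 RPKM, and the ranges of these subunits overlapped between libraries.

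The 21 genes that were not tested averaged at most 0.31 RPKM over the 9 libraries (COX4L), reached at most 0.57 RPKM and at most 28 reads in a single library, and 7 of them were at 0 in every library. Among them are 3 genes that are not paralog copies. The complex I subunit ND-MNLL (FBgn0029971, chromosome X, 7893053 to 7893798) and the complex III subunit UQCR-14 (FBgn0030733, chromosome X, 16286288 to 16286988) are listed at 0 in all 9 libraries. Every exon base of ND-MNLL lies within an exon of CG45089 on the same strand, and every exon base of UQCR-14 lies within an exon of CG32576 on the opposite strand. COX5BL, a paralog copy also listed at 0, is covered in the same way by Trmt6 on the opposite strand. Over the table, 499 of 554 rows whose exons are wholly shared with other genes were at 0 in every library (90.1%), against 1854 of 10927 rows with no shared exon base (17%). All 3 members with wholly shared exons were at 0, so that the listed 0 of these genes gives no measure of their transcripts. The third, ND-B8, a subunit of complex I, had 6 to 20 reads per library, or 0.17 to 0.27 RPKM on HSD, 0.24 to 0.31 on HFD and 0.24 to 0.57 on ND, and 15.4% of its exon bases lie under Gs1l on the opposite strand. Of the genes tested, UQCR-6.4 shared most, with 40.5% of its exon bases under POSH on the opposite strand. It was followed by ATPsyndelta with 35.6% and ND-MWFE with 35.0%, the lowest transcripts tested of the ATP synthase and of complex I. The RPKM of these genes understates their level if shared bases were not counted.

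Among the paralog copies, 3 were above the threshold for testing. COX7AL2 (FBgn0085201, chromosome 2L, 2192525 to 2197912), a copy of the complex IV subunit COX7A, stood at 22.3, 26.0 and 24.2 RPKM on HSD, at 16.0, 19.1 and 20.7 on HFD and at 23.1, 28.0 and 20.1 on ND. All HFD libraries were below all HSD libraries, while the HFD and ND libraries overlapped. Its level averaged 16.0-fold below that of COX7A. UQCR-11L (FBgn0050354, chromosome 2R, 8677219 to 8677661), a copy of the complex III hinge protein, had 3.19, 4.95 and 4.32 RPKM on HSD, 3.43, 2.54 and 3.24 on HFD and 3.32, 3.29 and 3.72 on ND. The diets overlapped, and the level was 9.62-fold below that of UQCR-11, with lengths of 443 bases for the copy and 1613 for UQCR-11. COX7CL (FBgn0265342, chromosome 2R, 10050348 to 10050874) had 0.83, 0.99 and 1.03 RPKM on HSD, 0.97, 1.07 and 1.41 on HFD and 0.71, 0.86 and 1.17 on ND, which rest on 21 to 45 reads per library. It lies next to COX7C on the same chromosome, its diets overlapped, and its level was 153-fold below that of COX7C. Of the remaining 18 copies, COX4L had 10 to 28 reads per library, COX7AL had 4 to 13 and ATPsynbetaL had 0 to 14. The others, among them ND-49L, ND-51L1 and ND-51L2, had at most 10 reads in any library. The 5 male germline markers, each too low to be tested, summed to no more than 0.64 RPKM on HSD, 1.23 on HFD and 0.60 on ND.

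The level of the whole set varied within the diets. For each library, the median deviation of the 59 genes from their means over the 9 libraries was taken on the log2 scale. It was 0.07, 0.03 and -0.04 in HSD libraries A, B and C, -0.03, 0.004 and -0.10 in HFD libraries, and 0.14, -0.04 and -0.06 in ND libraries. ND library A was the highest of all 9, and the ND libraries alone spanned 0.20, while the diet means were 0.02 on HSD, -0.04 on HFD and 0.01 on ND. The same library was the highest in each of the 5 groups of subunits, with 0.12 in the complex I core, 0.15 in the accessory subunits, 0.11 in complex III, 0.16 in complex IV and 0.15 in the ATP synthase. The medians of complex IV were below 0 in all HFD libraries (-0.05, -0.04 and -0.13 in A, B and C) and lower there than in the other 6. Over all genes tested, the deviations were between -0.01 and 0.01. The rescaling by the median of ratios sets this median near 0 in every library, so it is no independent comparison. ND library A also had the largest summed fat body level, 2622 RPKM against 1898 and 2056 in ND libraries B and C, and the smallest summed oenocyte level of the 9 libraries. Lsp2 stood at 947 RPKM in ND library A against 327 and 347 in B and C. FASN1 and Lpin were also highest of the ND libraries in A, while apolpp (742 against 791 and 809) and Fbp1 were not. The oenocyte sum was mostly Cyp4g1 (33271 RPKM in ND library A). Cyp4g1 and FASN2 were lowest of the 9 libraries there, while FASN3 and desat1 were not. HSD library A, the highest of the HSD libraries for the subunits, had the lowest heart and muscle sum on HSD (2655 RPKM) and the highest nephrocyte sum on HSD (294 RPKM). The part of these cell types in the subunit levels was not tested.

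**Figure D2:**
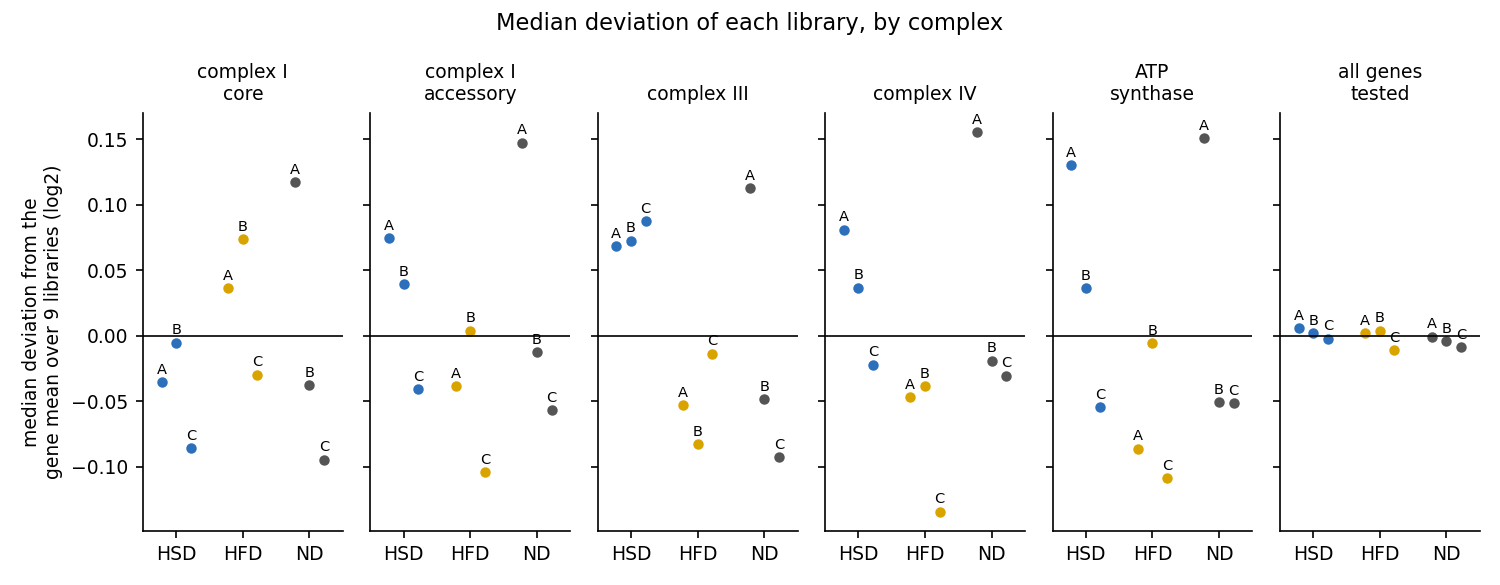
Median deviation of the genes of each complex from their means over the 9 libraries, in log2 units, for libraries A, B and C on HSD (blue), HFD (yellow) and ND (grey), with all genes tested at the right. ND library A is the highest library in every complex, and complex IV is lower in the 3 HFD libraries than in the other 6. Complex III is higher in the 3 HSD libraries than in the 3 HFD libraries. All genes together stay between -0.01 and 0.01, because the rescaling sets their median near 0 in every library.

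The first question was whether either rich diet changed the expression of the machinery relative to ND, and whether HSD and HFD differed. A gene was called where limma gave an adjusted p under 0.05 (Benjamini-Hochberg, over all genes tested) together with a fold change of at least 1.5, which is an absolute log2FC of 0.585. None of the 59 genes was called in HSD versus ND, where 3.3% of all genes tested were called. None was called in HFD versus ND, where 1.91% of all genes tested were called. None was called in HSD versus HFD, where 4.35% of all genes tested were called. The counts were also 0 in each comparison with limma-voom on the rebuilt reads. At an unadjusted p under 0.05, 1 gene passed in HSD versus ND, 11 in HFD versus ND and 10 in HSD versus HFD, against 20.7%, 18.4% and 25.7% of all genes tested. As shares of the 59 genes these are 1.69%, 18.6% and 16.9%. In ND comparisons both diets are set against the same ND libraries, ND library A included.

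The absence of calls was accompanied by narrow intervals. The median standard error of log2FC was 0.09 over the 59 genes and 0.10 over all genes tested, which were not matched to the 59 in level. The median within-diet SD on the log2 scale was 0.095 for the 59 genes and 0.126 for all genes tested. For the 3124 genes tested that averaged at least 15 RPKM it was 0.117. The 95% interval of log2FC lay within a 1.5-fold change in either direction for 59 of 59 genes in HSD versus ND, 56 of 59 in HFD versus ND and 56 of 59 in HSD versus HFD, against 77.5%, 78.7% and 74.8% of all genes tested. The exceptions were ND-AGGG, COX7AL2 and COX7CL in HFD versus ND, and ND-AGGG, COX7AL2 and UQCR-11L in HSD versus HFD. Smaller changes than 1.5-fold are inside many of these intervals. With 3 libraries per diet, the two-sided exact permutation test of a single gene gives no p under 0.1.

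**Figure D3:**
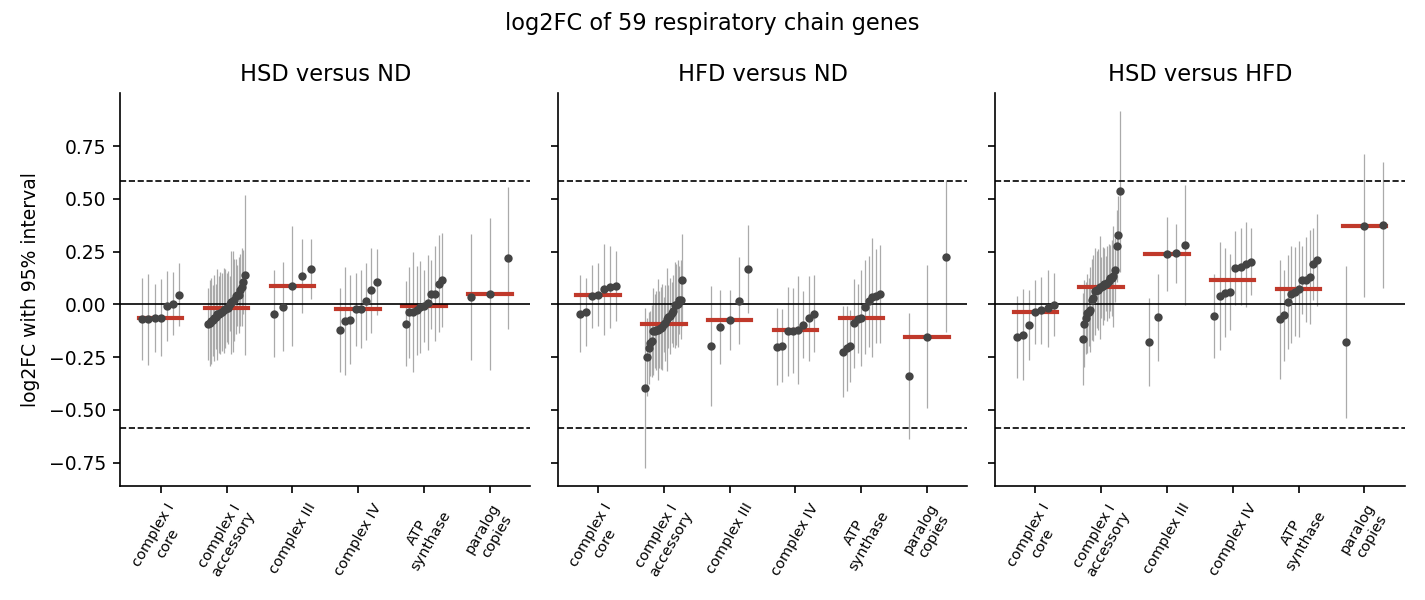
log2FC of the 59 genes by complex in HSD versus ND at the left, HFD versus ND in the middle and HSD versus HFD at the right. Points are genes with their 95% intervals, red bars are the medians of the complexes, and dashed lines mark a 1.5-fold change. All points lie between the dashed lines, from -0.12 to 0.22 at the left, from -0.40 to 0.23 in the middle and from -0.18 to 0.54 at the right.

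In HSD versus ND the 59 log2FC values ran from -0.12 to 0.22, with a median of -0.01 where all genes tested had a median of 0.002, and 27 were positive and 32 negative. The split depended on the scaling, since 42 of 59 were positive with RPKM as deposited (median 0.03, all genes 0.04) and 49 of 59 after quantile normalization (median 0.06, all genes 0.03). The libraries of the diets did not overlap for 1 gene that was higher on HSD (14.9% of all genes tested) and for no gene that was lower (14.3% of all genes tested). With RPKM as deposited 9 genes were higher (20.2% of all genes tested) and after quantile normalization 14 were (17.8% of all genes tested), with none lower in either (10.6% and 12.2% of all genes tested). The 1 gene that was higher with the median of ratios was UQCR-6.4 (FBgn0034245, chromosome 2R, 17572096 to 17572784), a small subunit of complex III. It stood at 103, 101 and 105 RPKM on HSD, at 90.1, 87.0 and 83.6 on HFD and at 95.7, 90.7 and 88.5 on ND. Every HSD library was above every other library, and HFD and ND overlapped. Its log2FC in HSD versus ND was 0.17 ± 0.06 (SE), with an adjusted p of 0.164 in limma and an exact permutation p of 0.1.

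The largest decreases in HSD versus ND were small. COX4 (FBgn0032833, chromosome 2L, 19958713 to 19960065), a nuclear subunit of complex IV, stood at 262, 253 and 239 RPKM on HSD, at 255, 276 and 252 on HFD and at 303, 257 and 261 on ND. The HSD and ND libraries overlapped, ND library A being the highest. ND-B17, an accessory subunit of complex I, averaged 69.4 ± 4.35 RPKM on HSD, 72.5 ± 2.67 on HFD and 74.2 ± 4.87 on ND, and ATPsynG, a membrane subunit of the ATP synthase, averaged 255 ± 17.3, 235 ± 10.9 and 272 ± 22.3 RPKM in the same order of diets (SD, n = 3 each). The log2FC of these 3 genes lay between -0.12 and -0.09, with adjusted p of 0.511, 0.559 and 0.648 in limma for COX4, ND-B17 and ATPsynG.

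In HFD versus ND the log2FC values ran from -0.40 to 0.23, with a median of -0.07 where all genes tested had a median of 0.02, and 16 were positive and 43 negative. The sign of the median of the 59 genes depended on the scaling. With RPKM left as deposited, the median of all genes tested was 0.12 and that of the 59 genes 0.04, with 38 of 59 positive, and after quantile normalization the median of all genes tested was 0.02 and that of the 59 genes -0.02. The median of the 59 genes was below that of all genes in each of these 3 scalings, and without ND library A it was -0.02. All 8 subunits of complex IV had a negative log2FC (median -0.12), as had 21 of 25 accessory subunits of complex I (median -0.09), 3 of 5 of complex III (median -0.08) and 7 of 11 of the ATP synthase (median -0.06), while 5 of 7 core subunits of complex I were positive (median 0.05). With RPKM as deposited, 5 of 8 subunits of complex IV and 10 of 25 accessory subunits of complex I were negative. The libraries did not overlap for 9 genes that were lower on HFD, which is 15.3% of the 59 where 12% of all genes tested were, and for no gene that was higher, where 11.3% of all genes tested were. With RPKM as deposited these numbers were 3 lower and 11 higher, where 5.22% and 28.9% of all genes tested were, and after quantile normalization 4 lower and 5 higher, where 11.0% and 12.9% were.

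The 9 genes with all HFD libraries below all ND libraries were ND-MLRQ, ND-MWFE, ND-ASHI and ND-13A of complex I, COX7A and COX8 of complex IV, and ATPsynF, ATPsynG and ATPsynE, which belong to the membrane part of the ATP synthase. Their adjusted p in limma were 0.139 or larger. With RPKM as deposited, only ND-ASHI, ATPsynG and ATPsynE of these 9 kept all HFD libraries below all ND libraries. The HFD and ND libraries of ND-MLRQ, ND-MWFE, ND-13A, COX7A, COX8 and ATPsynF then overlapped. ND-MLRQ (FBgn0052230, chromosome 3L, 23339326 to 23345936) stood at 424, 386 and 423 RPKM on HSD, at 335, 306 and 338 on HFD and at 390, 404 and 370 on ND. The 3 HFD libraries were below the other 6, and its log2FC in HFD versus ND was -0.25 ± 0.08 (SE). COX7A (FBgn0040529, chromosome 3R, 8339944 to 8341043) stood at 367, 368 and 368 RPKM on HSD, at 334, 316 and 324 on HFD and at 400, 382 and 340 on ND, again with the HFD libraries below all others. Its log2FC in HFD versus ND was -0.20 ± 0.08 (SE), with an adjusted p of 0.229 in limma. COX7C, another small subunit of complex IV, averaged 159 ± 2.37 RPKM on HSD, 141 ± 10.1 on HFD and 161 ± 9.42 on ND (SD, n = 3 each), and its HFD and ND libraries overlapped.

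The lowest log2FC in HFD versus ND belonged to ND-AGGG (FBgn0058002, chromosome 3L, 24976254 to 24977118), an accessory subunit of complex I. It stood at 40.3, 36.1 and 39.7 RPKM on HSD, at 22.5, 23.9 and 34.6 on HFD and at 29.4, 40.9 and 35.9 on ND. HFD libraries A and B were the lowest of all 9, while HFD library C lay among the ND libraries, and the within-diet spread was the largest of the 59 genes (SD of 0.24 on the log2 scale, where the median of the set was 0.10). The log2FC was -0.40 ± 0.17 (SE) in HFD versus ND, with an adjusted p of 0.251 in limma. UQCR-11, at 35.6, 35.7 and 39.9 RPKM on HSD, 26.8, 27.7 and 37.5 on HFD and 31.8, 36.8 and 36.1 on ND, also had HFD libraries A and B as the lowest, while its HFD library C lay above all ND libraries. HFD library C also had the highest osk (10.1 RPKM) and vas (1.52) of the HFD libraries, against at most 0.36 and 0.10 in the others. Cp15 and Vm26Aa, from the same list of ovary markers, were instead highest in HFD library A (1.44 and 3.46 RPKM, against 0.40 and 2.07 in C). The part of ovary RNA in the subunit levels was not tested.

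The highest log2FC in HFD versus ND were those of COX7CL (0.23 ± 0.16), UQCR-C1 (0.17 ± 0.09) and ND-SGDH (0.12 ± 0.09, SE), and each had overlapping libraries. UQCR-C1 (FBgn0038271, chromosome 3R, 14890231 to 14892387), a core protein of complex III, stood at 275, 268 and 258 RPKM on HSD, at 308, 317 and 282 on HFD and at 301, 261 and 246 on ND. ND library A was within the range of the HFD libraries, and the other ND libraries were below it. ND-SGDH, an accessory subunit in the membrane arm of complex I, averaged 173 ± 13.2 RPKM on HSD, 194 ± 12.9 on HFD and 179 ± 16.1 on ND. ND-51, the core subunit that binds NADH, averaged 173 ± 12.8 RPKM on HSD, 191 ± 11.8 on HFD and 182 ± 17.6 on ND (SD, n = 3 each), and its diets overlapped.

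**Figure D4:**
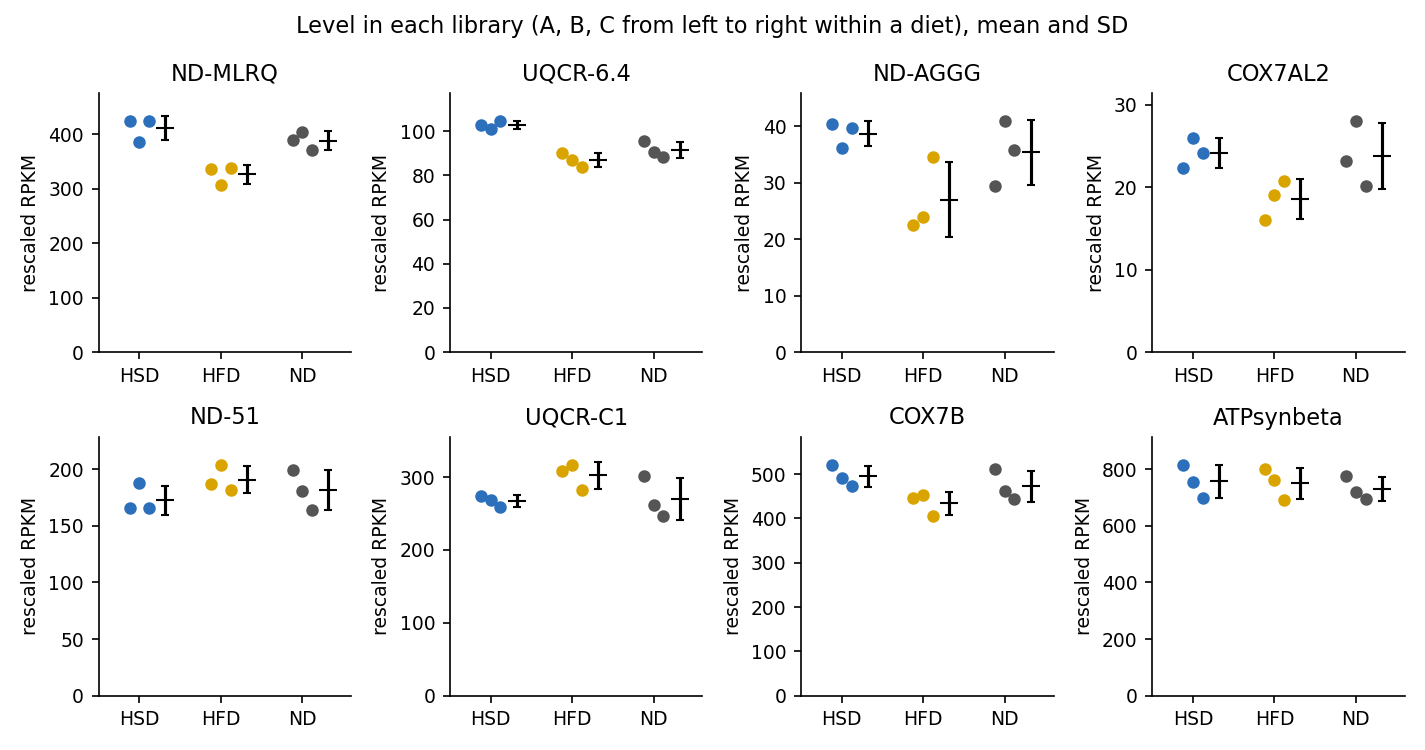
Rescaled RPKM of 8 genes in each library on HSD (blue), HFD (yellow) and ND (grey), with points for libraries A, B and C and a bar for the mean with its SD (n = 3 each). The axes start at 0. ND-MLRQ is lower in all 3 HFD libraries, UQCR-6.4 is higher in all 3 HSD libraries, ND-AGGG is low in HFD libraries A and B alone, and the libraries of ATPsynbeta overlap across diets.

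HSD versus HFD showed the widest spread of values. The log2FC ran from -0.18 to 0.54 with a median of 0.07, where all genes tested had a median of -0.01, and 40 were positive and 19 negative. With RPKM left as deposited the median of the 59 genes was 0.002 where that of all genes was -0.07, with 31 positive, and after quantile normalization it was 0.09 where that of all genes was 0.01, so that the 59 genes were above all genes in each of the 3 scalings. At an adjusted p under 0.05 in limma with no threshold on the fold change, 2 of the 59 genes passed, where 9.42% of all genes tested did. No gene of the set passed at that level in HSD versus ND, where 6.68% of all genes tested did, or in HFD versus ND, where 2.95% did. ND-MLRQ was 1.26-fold higher on HSD than on HFD, with a log2FC of 0.33 ± 0.08 (SE) and an adjusted p of 0.037 in limma. UQCR-6.4 was 1.18-fold higher on HSD than on HFD, with a log2FC of 0.24 ± 0.06 (SE) and an adjusted p of 0.045 in limma. Both were higher in all 3 HSD libraries than in all 3 HFD libraries, and neither reached the 1.5-fold threshold. These adjusted p did not hold under many alternatives. Both genes stayed below 0.05 with either other pseudocount, without the filter, with a filter of 2 RPKM, without the trend in the prior and with limma-voom. With the library letter as a replicate block the adjusted p in limma were 0.046 for ND-MLRQ and 0.049 for UQCR-6.4. With RPKM as deposited they were 0.106 for ND-MLRQ and 0.114 for UQCR-6.4, with only these 2 diets in the model 0.085 and 0.092, and after quantile normalization 0.078 and 0.038. On leaving out 1 library at a time, ND-MLRQ ran from 0.049 to 0.121 and was below 0.05 only without HFD library C, and UQCR-6.4 ran from 0.049 to 0.137 and was below 0.05 only without ND library A.

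ND-AGGG had the largest log2FC in HSD versus HFD, 0.54 ± 0.17 (SE), with an adjusted p of 0.082 in limma. Without HFD library C its log2FC was 0.73 and it was called, the only call of a member when any of the 9 libraries was left out. The paralog copies COX7AL2 and UQCR-11L followed with 0.38 ± 0.13 and 0.37 ± 0.15 (SE) and adjusted p of 0.114 and 0.158 in limma. ND-MWFE, a small membrane subunit of complex I chosen after its values were seen, stood at 24.9, 24.3 and 22.9 RPKM on HSD, at 20.9, 19.0 and 19.5 on HFD and at 25.0, 22.5 and 21.3 on ND. Its HFD libraries were below all others after rescaling, while with RPKM as deposited its HFD and ND libraries overlapped. Its adjusted p in HSD versus HFD was 0.052 in limma. COX7B (FBgn0040793, chromosome 3L, 17425477 to 17426282), the most abundant transcript of complex IV, stood at 521, 491 and 473 RPKM on HSD, at 445, 452 and 405 on HFD and at 512, 462 and 445 on ND. The HSD libraries were above all HFD libraries and overlapped with ND, and its log2FC in HSD versus HFD was 0.19 ± 0.09 (SE), with an adjusted p of 0.223 in limma.

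The libraries of HSD and HFD did not overlap for 16 genes that were higher on HSD, which is 27.1% of the 59 where 15.8% of all genes tested were, and for 1 gene that was lower, UQCR-C1, where 14% of all genes tested were. These numbers depended on the scaling. They were 10 higher and 14 lower with RPKM as deposited, where 9.41% and 21.7% of all genes tested were, and 23 higher and 3 lower after quantile normalization, where 16.8% and 12.8% were. By complex, the core of complex I stood apart in direction from the other groups. Its 7 subunits all had a negative log2FC in HSD versus HFD (median -0.04, from -0.15 to -0.001), also with RPKM as deposited (7 of 7, median -0.10) and nearly so after quantile normalization (6 of 7, median -0.02). In contrast, 19 of 25 accessory subunits of complex I (median 0.08), 7 of 8 of complex IV (median 0.12) and 9 of 11 of the ATP synthase (median 0.07) were positive, with 16 of 25, 4 of 8 and 6 of 11 positive with RPKM as deposited. The 5 subunits of complex III were divided, with UQCR-C1 and UQCR-C2 negative and UQCR-Q, UQCR-6.4 and UQCR-11 between 0.24 and 0.28. None of the differences between complexes was tested.

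The direction in HSD versus HFD went with the length of the gene. The length is that behind the RPKM, which is the summed exon length except in ATPsynC and ND-B16.6, where it was taken from the values. It was at least 1000 bases in 5 of 7 core genes of complex I, against 5 of 25 accessory genes (6 by the annotated exons, with ND-B16.6), 3 of 5 genes of complex III, 1 of 8 of complex IV and 4 of 11 of the ATP synthase. Across the 59 genes, which are not independent replicates and share the same 9 libraries, Spearman's rho between log2FC and this length was -0.45 in HSD versus HFD, 0.39 in HFD versus ND and -0.28 in HSD versus ND. Over the 8306 other genes tested it was -0.15, 0.09 and -0.08 in the same order of comparisons. In HSD versus HFD the 41 members shorter than 1000 bases had a median log2FC of 0.10 and the 18 longer ones -0.03. The 1431 other genes shorter than 1000 bases had a median of 0.06 and the 6875 longer ones -0.02, the same direction with a smaller distance. The part of gene length in the difference between the complexes was not tested.

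**Figure D5:**
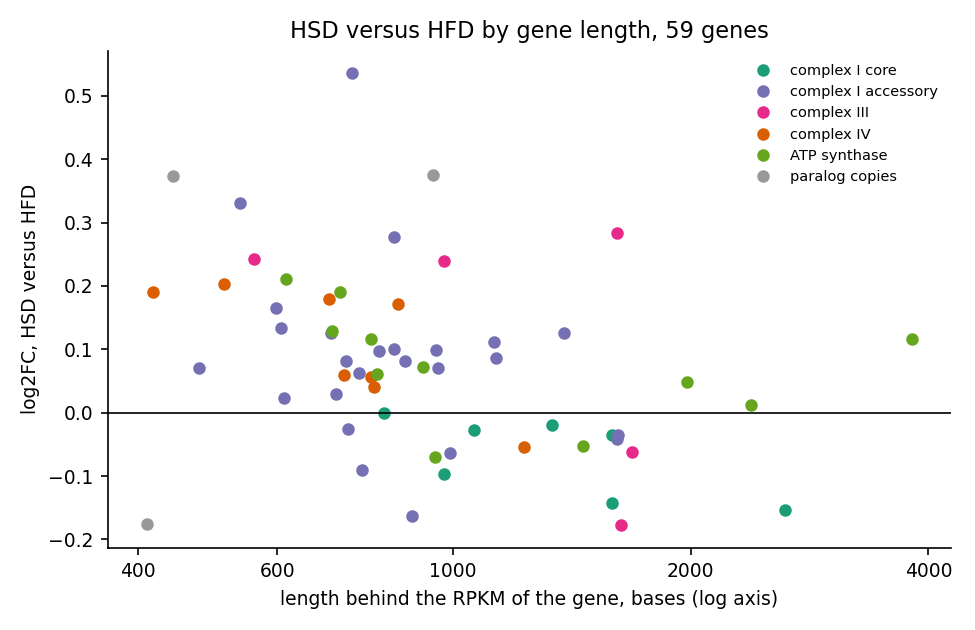
log2FC in HSD versus HFD against the length behind the RPKM of each of the 59 genes, coloured by complex. The length axis is logarithmic. Most genes shorter than 1000 bases lie above 0, and all 7 core subunits of complex I lie below 0.

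Genes of the same complexes whose symbols carry other names behaved in a similar range. The list held 7 genes, blw (alpha subunit of the ATP synthase), sun (epsilon subunit of the ATP synthase), cype and levy (complex IV), and RFeSP, Cyt-c1 and ox (complex III). None of the 7 was called in either direction in any comparison. Of all genes tested, 3.3% were called in HSD versus ND, 1.91% in HFD versus ND and 4.35% in HSD versus HFD. The alpha subunit blw averaged 599 RPKM on HSD, 615 on HFD and 600 on ND, with log2FC between -0.04 and 0.03 in the 3 comparisons. The epsilon subunit sun stood at 298, 289 and 293 RPKM on HSD, at 219, 216 and 252 on HFD and at 292, 286 and 268 on ND. All HFD libraries were below the other 6, and its log2FC in HSD versus HFD was 0.36 ± 0.08 (SE), with an adjusted p of 0.027 in limma and a fold change under 1.5. The adjusted p was 0.077 with RPKM as deposited, 0.053 after quantile normalization, 0.067 with only these 2 diets in the model, and from 0.015 to 0.092 on leaving out 1 library, below 0.05 in 4 of 9 cases.

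Complex II and cytochrome c, which link to the complexes above, were given by a list of 8 genes, of which 5 were tested. None was called in either direction in any comparison, where 3.3%, 1.91% and 4.35% of all genes tested were, in the order above. Cyt-c-p, the cytochrome c of somatic cells that carries electrons from complex III to complex IV, stood at 467, 442 and 384 RPKM on HSD, at 298, 315 and 296 on HFD and at 350, 304 and 291 on ND. Every HSD library was above every other library. The log2FC was 0.45 ± 0.10 (SE) in HSD versus ND, with an adjusted p of 0.035 in limma, and 0.50 ± 0.10 (SE) in HSD versus HFD, with an adjusted p of 0.018 in limma. Both differences were under the 1.5-fold threshold. With RPKM as deposited the adjusted p in limma was 0.011 in HSD versus ND and 0.014 in HSD versus HFD. After quantile normalization it was 0.0036 and 0.0025, and with the replicate block 0.024 and 0.014. With only the 2 diets of a comparison in the model the adjusted p was 0.067 in HSD versus ND and 0.037 in HSD versus HFD. On leaving out 1 library it was below 0.05 in 4 of 9 and 7 of 9 cases (0.042 to 0.139 and 0.017 to 0.076). Cyt-c-d, a second cytochrome c gene known from the testis, averaged 0.11 RPKM on HSD, 0.04 on HFD and 0.05 on ND. The 4 subunits of complex II, succinate dehydrogenase, had log2FC between -0.27 (SdhA in HSD versus HFD, adjusted p of 0.059 in limma) and 0.19 (SdhA in HFD versus ND, adjusted p of 0.231 in limma).

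Regulators and carriers of the mitochondrion were given by a list of 9 genes, all tested. None was called in either direction in any comparison, where the same 3.3%, 1.91% and 4.35% of all genes tested were. The adenine nucleotide carrier sesB, which exports the ATP made by the synthase, averaged 683 RPKM on HSD, 683 on HFD and 609 on ND. The coactivator srl, the fly counterpart of PGC-1, averaged 3.67 RPKM on HSD, 4.47 on HFD and 2.85 on ND, with a log2FC of 0.54 in HFD versus ND and an adjusted p of 0.132 in limma. IF1, an inhibitor of the ATP synthase when it runs backwards, averaged 126 RPKM on HSD, 146 on HFD and 159 on ND, with a log2FC of -0.34 in HSD versus ND and an adjusted p of 0.063 in limma. TFAM, which packages and transcribes the mitochondrial genome, averaged 22.4 RPKM on HSD, 22 on HFD and 19.9 on ND.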

How the data were processed

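Per the labels and the study's methods, the authors removed low-quality read ends with Sickle, mapped reads on dm3 with Subread 1.6.1, assigned them to genes with featureCounts 1.6.1 and moved gene identifiers to dm6. They deposited 1 table of RPKM, in which 28.4% of the rows, 4746 of 16700, use a decimal comma. DESeq2 and edgeR, which the study names for its own scaling and tests, were not used here. Strand use in counting is not given in the sources used here.

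Commas were read as points. In 9 stretches the labels were moved by 1 to 5 rows, which concerned 5 members. For 71 members, the RPKM times the exon length in BDGP6 came within 0.02 of a whole number of reads in each library, 2 members needed a length taken from the values, and 7 were at 0. RPKM were divided by factors from 0.94 to 1.09 (median of ratios), 0.5 was added, and log2 values were fitted in 1 linear model of the 3 diets with limma 3.58.1 in R 4.3.3, its prior following mean expression. The filter was a mean of 0.5 RPKM, which 8365 genes met. The procedure was tested on simulated data. Intervals are 95%. Python 3.11.15 with pandas 2.3.3, scipy 1.17.1, numpy 2.4.6 and matplotlib 3.10.9 made the tables and figures.

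The members, gene lists and alternatives were chosen with earlier results of these data known. Values by library are given for the 3 highest and 3 lowest log2FC of each comparison, the most abundant member of each complex, and the paralog copies tested beside their parent genes. Genes of other names come from fixed lists, in which the ovary marker nos had no match. The p-values measure the spread between these libraries, and read counts cover counting error only. The main results were recomputed with RPKM left as deposited, with quantile normalization, with 0.1 or 1 as the pseudocount, without the filter, with a filter of 2 RPKM, without the trend in the prior, on 2 diets at a time, with the library letter as a replicate block, without the fold threshold, with labels as listed, without each of the 9 libraries, and with limma-voom on the rebuilt reads, the last chosen after seeing the data. Genes of the mitochondrial genome were not analysed here. No protein or promoter sequence was used here.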

Additional observations from a re-analysis of the deposited data

Results flagged for a closer look

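In 2 genes the effects of the diets differed from each other in a direct comparison of HSD and HFD, without reaching a fold change of 1.5. The log2FC of ND-MLRQ in HSD versus HFD was 0.33 (adjusted p of 0.037 in limma), and it was higher in 3 of 3 HSD libraries than in any HFD library. The log2FC of UQCR-6.4 in HSD versus HFD was 0.24 (adjusted p of 0.045 in limma), and it too was higher in 3 of 3 HSD libraries than in any HFD library. Neither stayed below an adjusted p of 0.05 with RPKM as deposited (0.106 and 0.114), with only the 2 diets in the model (0.085 and 0.092), or, for each gene, in 8 of 9 cases of leaving out 1 library (up to 0.121 and 0.137). With the replicate block both were just below it (0.046 and 0.049 in limma).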

How the results depend on the processing

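No member was called in any comparison under any alternative, with 3 exceptions, all in HSD versus HFD. The count was 1 without HFD replicate C (ND-AGGG), so that leaving out a library gave from 0 to 1, 2 with an adjusted p and no fold threshold, and 1 with the labels as listed (COX7AL2). The letters were not taken to pair the libraries, since the labels do not tie them to the collection dates and only 4 of 9 same-lettered pairs had deviations that correlated above 0.1. The A and C pairs correlated between 0.05 and 0.27 and the B pairs between -0.25 and 0.02, and HSD library A correlated best with HFD library B (0.36), so that shared dates can neither be assigned nor be set aside. With the replicate block 0 members were called in each comparison. The median log2FC of the members in HFD versus ND was -0.07 and moved to 0.04 with RPKM as deposited. The other medians stayed within the spread between replicates of 0.08, although several changed sign: leaving out 1 library gave medians from -0.05 to 0.04 in HSD versus ND, from -0.10 to -0.02 in the HFD to ND comparison and from 0.04 to 0.11 in the HSD to HFD comparison.

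Of 972 values of the named genes under the alternatives, 34 changed sign, in 17 of 51 gene and comparison pairs, and of these 34 only the row listed as COX7AL2 in HSD versus HFD was called. With RPKM as deposited, these were in HSD versus ND COX7A (0.021), COX7C (0.019) and UQCR-C1 (0.032), in HFD versus ND COX4 (0.045), ND-B17 (0.081) and UQCR-6.4 (0.036), and in HSD versus HFD ATPsynbeta (-0.058). With quantile normalization they were in HSD versus ND COX7A (0.124), COX7C (0.064), ND-51 (0.055), ND-SGDH (0.088) and UQCR-C1 (0.060), in HFD versus ND ND-B17 (0.026) and in HSD versus HFD ATPsynbeta (-0.031). With the labels as listed they were COX7AL2 (-0.643 for HSD over ND, 0.227 for HFD over ND and -0.870 for HSD over HFD) and ND-AGGG (-0.085 in HSD versus ND, -0.081 in HSD versus HFD), where another gene's values stand. Leaving out 1 library changed the sign of log2FC for ATPsynbeta (from -0.0037 to 0.106), COX7A (from -0.091 to 0.029), COX7AL2 (from -0.079 to 0.158), COX7C (from -0.074 to 0.0080), COX7CL (from -0.056 to 0.177), ND-SGDH (from -0.103 to 0.023) and UQCR-C1 (from -0.074 to 0.072) in HSD versus ND, for ATPsynbeta (from -0.0071 to 0.096), COX4 (from -0.111 to 0.0081) and ND-B17 (from -0.076 to 0.018) in HFD versus ND, and for ATPsynbeta (from -0.046 to 0.069) in HSD versus HFD. Depth limits COX7CL, which rests on 21 to 45 reads per library, and the 21 genes that were not tested.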

Other observations

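Of the genes with large values in HSD versus HFD, 3 start beyond position 23000000 of chromosome arm 3L, a place noticed after the values had been seen. ND-MLRQ starts at 23339326, ND-AGGG at 24976254 and UQCR-11 at 25120709 of 3L in the BDGP6 annotation. Among all genes tested, 29 start on 3L at or beyond position 23000000, the 3 subunits included. Their median log2FC was 0.23 in HSD versus HFD, with 3 of 29 negative, against -0.0003 and 50.0% negative for the 1550 tested genes on the rest of the arm. In HFD versus ND the median was -0.13, with 19 of 29 negative (65.5%), against 0.02 and 45.5% on the rest of the arm, and in HSD versus ND it was 0.16, with 4 of 29 negative, against 0.004 and 49.3%. Of the 29 genes, 2 were called in HSD versus HFD, where 4.35% of all genes tested were. None was called in HSD versus ND or HFD versus ND, where 3.3% and 1.91% of all genes tested were. The region was chosen after the values were known, and no test was made of it.

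The labels of 5 members stood in stretches of the table that are out of register, ND-AGGG, ND-MWFE, COX7AL2, ATPsynbetaL and ATPsynGL. As listed, the row of COX7AL2 gives a log2FC of -0.87 in HSD versus HFD (adjusted p of 0.044 in limma) and would be called, while the realigned row gives 0.38 (adjusted p of 0.114 in limma).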
